A study of Arabidopsis thaliana with 7 samples.

Results

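The nuclear 45S ribosomal RNA gene unit was examined at the copies that the TAIR10 assembly holds on chromosome 2 and chromosome 3. Members were all peaks that overlapped chromosome 2 from 1 to 12000, around the 18S gene AT2G01010, or chromosome 3 from 14190000 to 14206000, around the 18S gene AT3G41768. The rule uses position only, and it found 29 of the 2936 peaks of all 6 lists, 6 on chromosome 2 and 23 on chromosome 3. All immunoprecipitated DNA came from wild-type Arabidopsis thaliana Col-0 seedlings, 3 weeks old and grown in a cycle of 16 h light and 8 h dark. The antibody recognised cyclobutane pyrimidine dimers, the main lesion that UV makes between neighbouring pyrimidines. In the UV group, 4 libraries came from plants given 3000 J per square metre of UV-C, and in the group labelled no UV, here called untreated, 2 libraries came from plants without it. An input library without antibody was not analysed here on its own. The labels do not say whether replicates came from separate plants or cultures, and the spread that a p-value measures here may therefore be technical.

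The 45S unit encodes the 18S, 5.8S and 25S RNAs of the ribosome, which RNA polymerase I transcribes as a single precursor. In each unit the 18S gene comes first, then an internal spacer, the 5.8S gene, another internal spacer and the 25S gene, and an intergenic spacer with the promoter leads to the next unit. Plant genomes carry many near-identical copies in tandem arrays at the nucleolus organizer regions, and chromatin marks keep part of them silent. The gene table used here lists the 18S and 5.8S genes of both copies but no 25S gene, so the stretch after 5.8S is described by distance only. Sequence letters of the unit were not used here.

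Each library came with the authors' own list of peaks, which held between 228 and 677 peaks. Read depth is unknown. Each peak has a deposited score from the authors, used here only to rank peaks within their own list, because ranks from lists of different lengths do not show a change in signal. The percentile of a peak is the share of its list with a lower score, with tied peaks placed at the middle of their tie. Between 0.681% of the list (untreated replicate 2, exact Clopper-Pearson 95% interval 0.186 to 1.74%) and 1.34% (UV replicate 3, 0.492 to 2.89%) lay in the rDNA windows. These intervals cover counting error only. How reads that match several copies were assigned is not given in the sources used here, so a peak at one copy may hold reads from another, which was not tested.

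**Figure D1:**
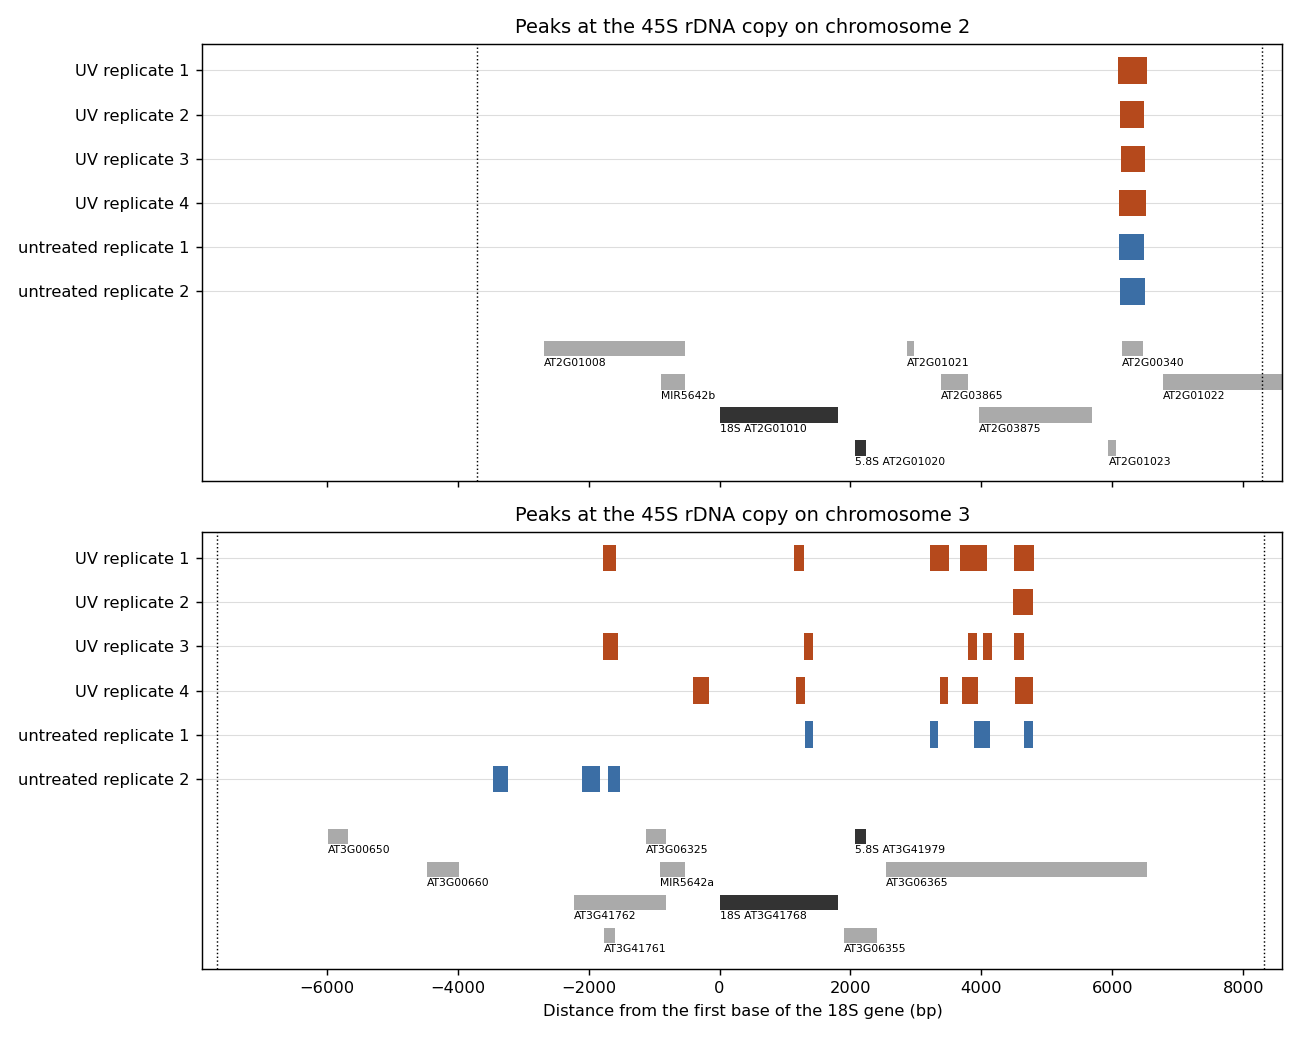
Position of every peak at both 45S copies, one row per library, as distance in bp from the first base of the 18S gene, with UV libraries in orange, untreated libraries in blue, rRNA genes in black and other annotated genes in grey. Dotted lines mark the ends of the windows; all 6 chromosome 2 peaks stack on AT2G00340, whereas the 23 chromosome 3 peaks spread from before the 18S gene into AT3G06365.

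On chromosome 2 every library had a single peak, and all of them lay at the same place, well after the 5.8S gene. The peaks began 3853 to 3890 bp after the end of AT2G01020, the 5.8S gene. In the UV libraries they ran from 9798 to 10236 in replicate 1, from 9818 to 10192 in replicate 2, from 9835 to 10208 in replicate 3 and from 9805 to 10225 in replicate 4. In the untreated libraries they ran from 9816 to 10190 and from 9826 to 10205. All 6 shared the 356 bp from 9835 to 10190. This shared stretch contains the whole of AT2G00340, a gene of 329 bp at 9849 to 10177 that the table types as a miscellaneous RNA. The same 329 bp were therefore covered in each library.

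These chromosome 2 peaks were among the highest scored of their lists with and without UV. They ranked 6 of 562, 11 of 228, 5 of 449 and 3 of 677 in the lists of UV replicates 1 to 4. Their ranks without UV were 6 of 433 and 2 of 587. As percentiles the UV values were 99.0, 95.4, 99.0 and 99.6, and the untreated ones 98.7 and 99.7. The groups overlapped, and the untreated replicate 2 peak had the highest percentile of all. The UV mean was 98.3 ± 1.93 (SD, n = 4) and the untreated mean 99.2 ± 0.717 (SD, n = 2), a difference of -0.98 percentile points (exact permutation p = 0.733, two-sided). Without UV replicate 2, whose 95.4 stood apart from the other UV values, it was -0.021 points. The smallest p that 4 against 2 libraries allow is 0.0667, so no group comparison could pass 0.05.

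The width of the chromosome 2 peak overlapped between groups as well. In UV replicates 1 to 4 it was 439, 375, 374 and 421 bp, and without UV it was 375 and 380 bp. UV replicates 1 and 4 had the widest peaks, and UV replicates 2 and 3 were no wider than either untreated library. The UV mean of 402 ± 32.9 bp (SD, n = 4) compares with 378 ± 3.54 bp (SD, n = 2; exact permutation p = 0.467). The difference of 24.8 bp became 12.5 bp without UV replicate 1. All 6 peaks were wider than the narrowest width of their list, which was 122 to 147 bp.

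No library had a peak on any other annotated gene of the chromosome 2 window. Uncovered were the 18S gene AT2G01010 at 3706 to 5513, the 5.8S gene AT2G01020 at 5782 to 5945 and the 268 bp between them. Before the 18S gene, the protein-coding AT2G01008 and the microRNA gene MIR5642b had no peak. After 5.8S, no peak touched the protein-coding AT2G01021 and AT2G01023, the miscellaneous RNA genes AT2G03865 and AT2G03875 or the part of the pseudogene AT2G01022 inside the window. A list holds only what passed the authors' threshold, so a gene without a peak is not shown to lack lesions.

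On chromosome 3 the peaks were more numerous, more scattered and of very unequal score. UV replicates 1 to 4 had 5, 1, 5 and 5 peaks, and the untreated libraries had 4 and 3. Their widths ran from 124 to 417 bp with a median of 200 bp, and 7 of the 23 had the narrowest width of their list. The percentiles ran from 7.47 to 99.0 with a median of 88.3. Where peaks of any library overlapped they were merged, which gave 8 regions. Of these, 4 lay before the 18S gene, 1 in it, none in the spacer to 5.8S or in 5.8S itself, and 3 after it.

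The most widely shared chromosome 3 region, at 14202154 to 14202479, had a peak in all 4 UV libraries and in untreated replicate 1. It lay inside AT3G06365, a miscellaneous RNA gene of 3994 bp at 14200215 to 14204208, and its peaks began 2238 to 2409 bp after the end of the 5.8S gene, in the direction in which the 25S gene follows. The UV peaks ran from 14202170 to 14202479 in replicate 1, from 14202154 to 14202463 in replicate 2, from 14202177 to 14202328 in replicate 3 and from 14202184 to 14202461 in replicate 4. All 4 covered the 145 bp from 14202184 to 14202328. The untreated replicate 1 peak began at 14202325 and ended at 14202462, inside the UV replicate 1 and 2 peaks. All but its last base also lay inside the UV replicate 4 peak. It shared 4 bp with the stretch common to all 4 UV libraries, because the UV replicate 3 peak ended at 14202328. Untreated replicate 2 had no peak there.

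In every UV list this peak ranked near the head. For UV replicates 1 to 4 the ranks were 8 of 562, 3 of 228, 6 of 449 and 7 of 677, whereas untreated replicate 1 had it at 34 of 433. The percentiles were 98.7, 98.9, 98.8 and 99.0 with UV and 92.3 in untreated replicate 1. Its width was 310, 310, 152 and 278 bp in the UV libraries and 138 bp in untreated replicate 1, where the narrowest width was 129 bp. All UV values lay above the untreated ones in percentile and in width. Narrowest widths differ between lists, however, and in the list of UV replicate 3, with its 152 bp peak, the narrowest was 145 bp. Its peak was thus at least as near to the narrowest width as that of untreated replicate 1. Among 2249 merged nuclear regions, 3 had every UV percentile above both untreated ones, 0.133% of all, with a library without a peak set to 0. Such a separation needs a peak in every UV library, which only 12 of the 2249 regions had. This region was the only one of the 3 with a peak in an untreated library. It was singled out after its values were seen, so it received no test of its own.

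**Figure D2:**
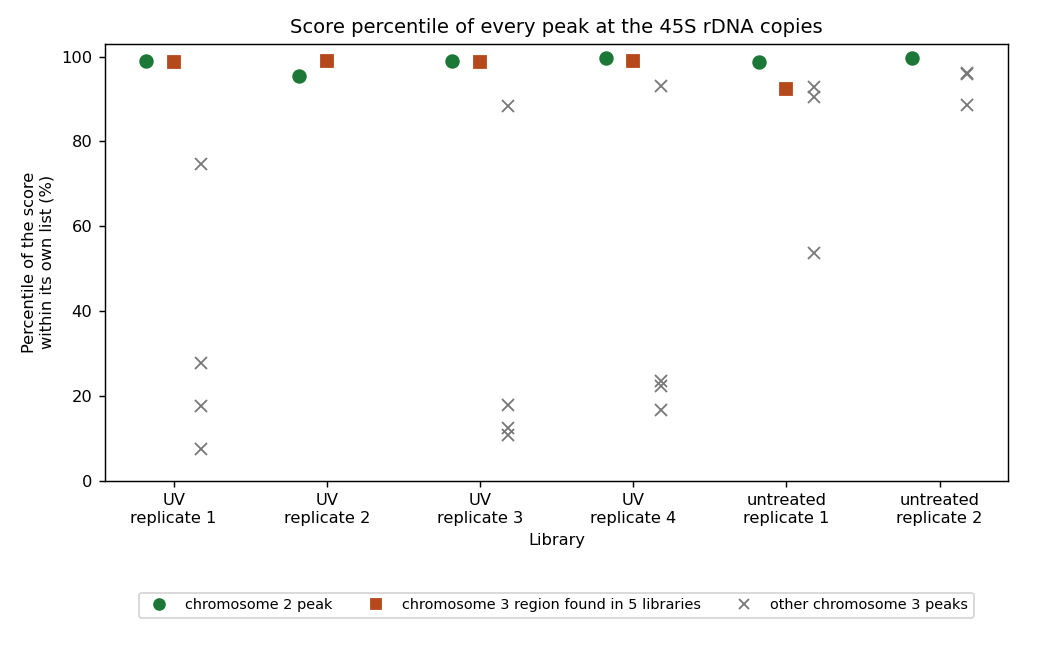
Within-list score percentile (vertical axis, %) for each of the 29 peaks, by library. Chromosome 2 peaks (circles) lie at 95.4 or above in all 6 libraries, the chromosome 3 region found in 5 libraries (squares) lies at 98.7 or above with UV and at 92.3 in untreated replicate 1, and other chromosome 3 peaks (crosses) run from 7.47 to 96.2.

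Upstream in AT3G06365 lay the other regions after 5.8S, which had mostly low-ranked peaks with UV. The region at 14200885 to 14201187 had peaks in UV replicates 1 and 4 and untreated replicate 1, with percentiles of 7.47, 16.6 and 53.6. The untreated peak there had the narrowest width of its list, 129 bp, and shared its score with 257 others of that list. The region at 14201350 to 14201846 had 5 peaks, 1 each in UV replicates 1 and 4 and untreated replicate 1 and a pair in UV replicate 3. The UV replicate 1 peak was the widest of the chromosome 3 window at 417 bp, with a percentile of 27.8. UV replicate 4 stood at 22.2, the UV replicate 3 pair at 12.4 and 88.3, and untreated replicate 1 at 93.0. All peaks after 5.8S lay in AT3G06365, of which UV replicates 1 to 4 covered 1020, 310, 442 and 648 bp, untreated replicate 1 covered 511 bp and untreated replicate 2 covered 0 bp.

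The 18S gene AT3G41768, at 14197677 to 14199484, had 1 peak in each of 4 libraries, all in its 3′ part. The table gives no strand, and the direction was taken from the order in which 18S precedes 5.8S on both chromosomes. Counted from the first base of the gene, the UV replicate 1 peak covered bases 1138 to 1284 and the UV replicate 4 peak bases 1164 to 1309. The UV replicate 3 peak covered bases 1287 to 1431 and that of untreated replicate 1 bases 1307 to 1435. The first pair overlapped widely, as did the second, but at most 3 libraries covered any base, over a stretch of 3 bp. UV replicate 2 and untreated replicate 2 had no peak in the gene. The peaks were 147, 146, 145 and 129 bp wide in the order given, and 3 of the 4 had the narrowest width of their list. Their percentiles were 74.6, 93.1, 17.9 and 90.5, so the untreated peak ranked within the range of the UV ones.

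Before the 18S gene, the peaks that libraries shared lay on AT3G41761, a non-coding RNA gene at 14195917 to 14196078, within the protein-coding gene AT3G41762 at 14195447 to 14196865. The region ran from 14195896 to 14196149 and had peaks in UV replicates 1 and 3 and untreated replicate 2. Both UV peaks covered all 162 bp of AT3G41761, and the untreated peak covered 113 bp of it. The UV percentiles were 17.7 and 10.8, and the untreated one was 95.8. Widths were 200, 223 and 184 bp. Untreated replicate 2 had further peaks, without a counterpart in another library, at 14195578 to 14195846 in AT3G41762 and at 14194218 to 14194446 outside any gene of the table. UV replicate 4 had one of 245 bp at 14197265 to 14197509, which ended 168 bp before the first base of 18S, at a percentile of 23.4.

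The untreated libraries shared no part of the chromosome 3 copy. All 4 peaks of untreated replicate 1 lay in the 18S gene or after 5.8S, and all 3 of untreated replicate 2 before the 18S gene. UV replicates 1, 3 and 4 had peaks on all 3 stretches, and UV replicate 2, the shortest list, had its only one after 5.8S. The window held 10 genes, of which 4 carried a peak in some library, beside 4.29% of all 37887 nuclear genes of the table. The other 6 were the 5.8S gene AT3G41979, AT3G06355, which spans it, the long non-coding RNA gene AT3G06325, MIR5642a and the miscellaneous RNA genes AT3G00650 and AT3G00660.

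**Figure D3:**
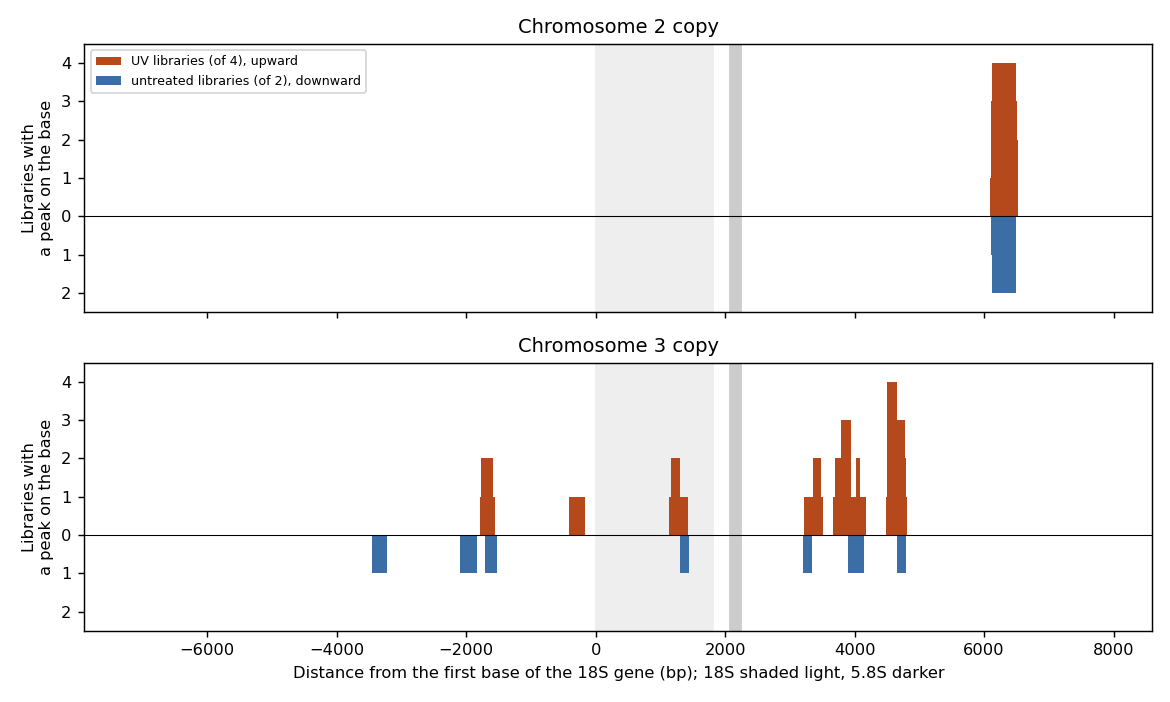
Number of libraries with a peak on each base (vertical axis; UV upward in orange, untreated downward in blue) against distance in bp from the first base of the 18S gene, with 18S in light and 5.8S in darker shading. On chromosome 2 all 4 UV and both untreated libraries cover the same 356 bp, and on chromosome 3 all 4 UV libraries coincide over 145 bp whereas untreated libraries never coincide.

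The groups did not separate in the amount of rDNA sequence that peaks covered. UV replicates 1 to 4 had 1367, 310, 810 and 1039 bp covered on chromosome 3, and the untreated libraries had 640 and 682 bp. UV replicate 2 lay below both untreated libraries and the other UV libraries above them. The UV mean was 882 ± 444 bp (SD, n = 4), against 661 ± 29.7 bp (SD, n = 2; exact permutation p = 0.533). Over both copies, UV libraries had 1284 ± 473 bp covered (SD, n = 4) against 1039 ± 33.2 bp in untreated ones (SD, n = 2, exact permutation p = 0.533). The number of peaks was 6, 2, 6 and 6 with UV and 5 and 4 without, with means of 5 ± 2 (SD, n = 4) and 4.5 ± 0.707 (SD, n = 2, exact permutation p = 0.8). The chromosome 3 difference of 220.5 bp was 58.7 bp without UV replicate 1, 411 bp without UV replicate 2 and 394.5 bp when only sequence from the 18S start to the end of AT3G06365 was counted.

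The direction of the chromosome 3 difference turned when low-ranked peaks were left out. Of the 16 UV peaks there, 9 were at or below the median score of their list, as was 1 of the 7 untreated ones. Restricted to scores above each list's median, chromosome 3 coverage in UV replicates 1 to 4 was 457, 310, 297 and 424 bp, while the untreated libraries kept 511 and 682 bp. Each UV library then lay below both untreated ones, with means of 372 ± 80.4 bp (SD, n = 4) and 596.5 ± 121 bp (SD, n = 2), and the exact permutation p of 0.0667 is the lowest available. Many scores are tied, so this restriction left 23.8 to 50% of a UV list but 16.6% and 24.2% of the untreated ones. Lists cut to their 228 highest peaks, with ties broken by position, were tried after the data had been seen. They gave 372 ± 80.4 bp for UV (SD, n = 4) against 661 ± 29.7 bp (SD, n = 2, exact permutation p = 0.0667). Only untreated replicate 1 differed from the median restriction, with 640 bp in place of 511 bp, through its 129 bp peak at 14200885 to 14201013. That peak shared its score with 257 others of its list, and position decided that it was kept.

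**Figure D4:**
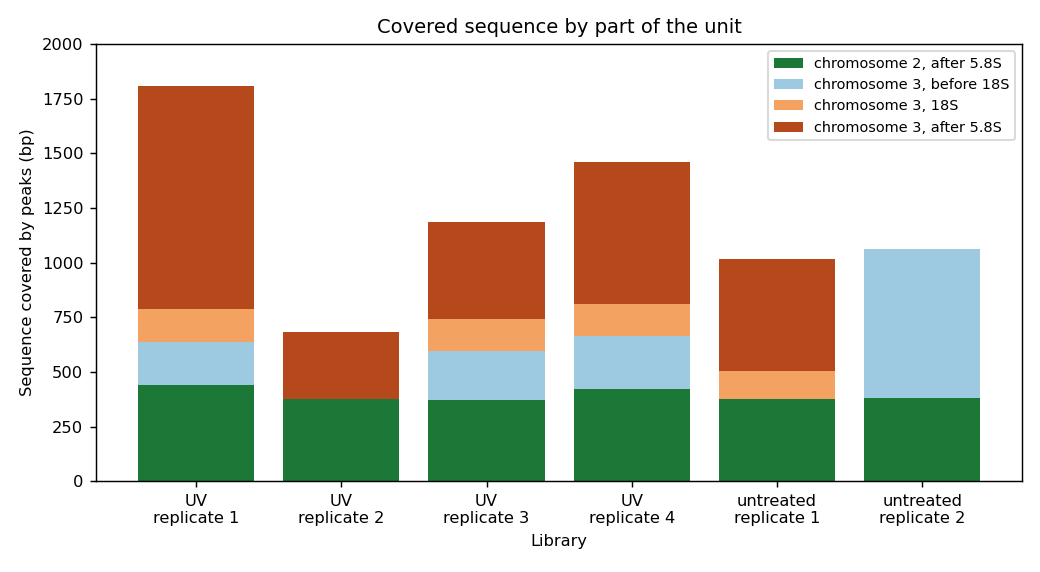
Sequence covered by peaks (vertical axis, bp) in each library, stacked by part of the unit. The chromosome 2 part is 374 to 439 bp in every library, whereas the chromosome 3 part runs from 310 bp in UV replicate 2 to 1367 bp in UV replicate 1, and in untreated replicate 2 it lies wholly before the 18S gene.

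The best-ranked peak of the chromosome 3 window stood higher in its list in all 4 UV libraries than in the untreated ones. In UV replicates 1 to 4 the highest percentile was 98.7, 98.9, 98.8 and 99.0, and without UV it was 93.0 and 96.2. Their mean was 98.8 ± 0.162 (SD, n = 4), against 94.6 ± 2.27 in untreated libraries (SD, n = 2), a difference of 4.28 percentile points, higher in 4 of 4 UV libraries (exact permutation p = 0.0667, the smallest possible). In the UV libraries this peak was always the region at 14202154 to 14202479, whereas in the untreated ones it lay at 14201570 to 14201813 and at 14194218 to 14194446. Of 7448 tiles of 16001 bp over the nuclear chromosomes, 3 had such a separation, 0.0403% of all. Tiles without a peak in every UV library could not show it but are part of that total. With the 228 highest peaks of every list the difference was 9.21 points (exact permutation p = 0.0667). From the 18S start to the end of AT3G06365 it was 52.4 points, because untreated replicate 2 had no peak there and counted as 0.

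In the lists, the copies carried their peaks at different places of the unit. How reads that match both copies were assigned is not given. A matched place without a peak is therefore not shown to differ in lesions from its counterpart, which was not tested. Both 18S genes are 1808 bp long and both 5.8S genes 164 bp, with 268 bp between them on either chromosome. Upstream, MIR5642b and MIR5642a start 901 and 903 bp before their 18S genes. Positions were therefore matched by distance from the first base of 18S. Beyond 5.8S and before the MIR5642 genes, this match rests on the assumption that the copies keep the same spacing. None of the 138 pairs of a chromosome 2 with a chromosome 3 peak overlapped at matched distance. These pairs repeat the same places across libraries, since all chromosome 2 peaks form a single region and many chromosome 3 peaks share regions too. The matched place of all 29 peaks lay inside the other window. The last chromosome 3 peak ended 1289 bp before the first chromosome 2 peak began.

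Read across, the chromosome 2 peak matches 14203769 to 14204207 on chromosome 3 at its widest, the 3′ end of AT3G06365, where no library had a peak. The chromosome 3 region shared by 5 libraries lies 4477 to 4802 bp from the first base of 18S. At its widest UV peaks this matches 8183 to 8492 and 8199 to 8508 on chromosome 2, in AT2G03875, where again no library had one. The 18S peaks of chromosome 3 match bases of AT2G01010 without a peak. Both windows had a peak in every library. So did 0.101% of 12000 bp tiles and 0.134% of 16001 bp tiles of the nuclear chromosomes, with tiles without any peak counted in the totals. The windows did so in different ways, since on chromosome 2 all 6 libraries met on the same bases and on chromosome 3 at most 5 met on a base.

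Compared with the other nuclear peaks, those at the rDNA copies were more often wide and more often scored above the median of their list. Of the 29 peaks, 22 were wider than the narrowest of their list (75.9%), against 331 of 2345 other nuclear peaks (14.1%). Per library the share was 50 to 100% at the rDNA copies and 9.95 to 19.3% elsewhere. Scores above the list median were found for 19 of the 29 (65.5%) and for 615 of the 2345 others (26.2%). In UV replicate 1 this was 3 of 6 rDNA peaks, against 42.6% of the others. The median percentile of the rDNA peaks was lower than that of the others in UV replicate 3, 53.1 against 54.3, and higher in every other library. These shares are descriptions without a test, since most of the 29 peaks are repeats of the same places in other libraries.

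The chromosome 2 region was 1 of the 9 nuclear regions with a peak in all 6 libraries, 0.4% of the 2249. The difference between groups in mean percentile ran over these 9 from -28.6 to 23.7 points, and the value of -0.98 for the chromosome 2 region was the second lowest. The region over DDB2, a gene for a protein that recognises UV lesions, had the highest. The chromosome 3 region was 1 of 12 with a peak in at least 5 libraries, 0.534% of all, and its difference of 52.7 points was the largest of these 12, in part because untreated replicate 2 had no peak and counted as 0.

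Other annotated ribosomal RNA genes had no peak. The table lists 11 rRNA genes, and only AT3G41768 was overlapped in any library, beside 4.5% of all 38016 nuclear and plastid genes. The rRNA gene that follows 5.8S in each unit is not among those entries. Over both copies 19 peaks lay after 5.8S, 13 of them on chromosome 3. Whether any of these lay in that gene was not tested, because its edges are not in the table. The 7 plastid entries, among them rrn16S, rrn23S and rrn4.5S, had none, whereas 68.2% of all 129 plastid genes were overlapped. Those 7 entries lie only at 101012 to 107701 and at 130580 to 137637, while the 68.2% is over the whole plastid. Of 7 genes for making rRNA or for the nucleolus, 1 had a peak, a list too short to be read against the nuclear share of 4.29%. Neither gene length nor gene position was taken into account in these shares, and none of them was tested. NUC-L2, for a nucleolin-like protein, had one of 284 bp in UV replicate 1 at 6405050 to 6405333 on chromosome 3, with a percentile of 7.47. NUC-L1, the related nucleolin gene, NRPA1 and NRPA2, for the large subunits of RNA polymerase I, FIB1 and FIB2, for the methyltransferase fibrillarin, and HDA6, a histone deacetylase that acts in silencing rRNA genes, had none.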

How the data were processed

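Peaks of 6 immunoprecipitated libraries were read from 1 list each. Per the file headers and peak names, the authors called them with MACS2 per library against pooled input and converted BED to GFF. The submitters' processing notes also name CASAVA 1.8.2, Bowtie and the TAIR10 genome, without settings or threshold. The deposited score has no stated unit or normalization. Start and end are deposited on TAIR10, counted from 1.

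A peak was a member when it overlapped a window by at least 1 bp. The windows and gene lists were chosen with earlier results of these data known. Genes came from the RefSeq table of TAIR10.1, whose nuclear coordinates were assumed to be those of TAIR10. Named were all genes overlapping the windows, other rRNA genes and 7 listed nucleolar genes. Peaks overlapping by at least 1 bp were merged into regions. Tiles ran from the start of each nuclear chromosome. Covered bp, peak number and highest percentile per library were compared by exact permutation over 15 splits, without adjustment over the 6 tests. Percentiles under a filter kept their rank in the full list, except with lists of equal length. Code was tested on simulated data. Python 3.11.15, numpy 2.4.6, pandas 2.3.3, scipy 1.17.1 and matplotlib 3.10.9 were used. Alternatives were the window edges, score, width and overlap filters, list length, each library left out and a replicate block.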

Additional observations from a re-analysis of the deposited data

Results flagged for a closer look

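Among 6 per-library measures of the rDNA windows, 2 had 1 UV value standing apart from the rest of its group, and chance gives such a flag in about 1 of 20 groups. UV replicate 2 had 2 peaks in both windows, where the other UV libraries had 6 each. Its chromosome 2 peak stood at a percentile of 95.4, where the others stood between 99.0 and 99.6. This library also had the shortest list, 228 peaks against 449 to 677 in the other UV libraries.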

How the results depend on the processing

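Of 72 alternative values of the group differences, 64 kept the direction of the reported one, 7 reversed it and 1 became 0, and none could pass 0.05. Some of the 64 could not differ, since every chromosome 2 peak passed the score, width and overlap filters. The count of 64 is therefore no measure of how firm the directions are. From the 18S start on, the difference was 394.5 bp on chromosome 3, 419 bp over both copies and 1.25 peaks, against 220.5 bp, 245 bp and 0.5 peaks in the whole windows. With only peaks wider than the narrowest of their list it was 0.25 peaks. Restricted to scores above each list's median, the difference between UV and untreated means was -224.5 bp covered on chromosome 3, -199.8 bp over both copies and -1.25 peaks. With the 228 highest peaks of every list, chosen after seeing the data, it was -289 bp, -264 bp and -1.75 peaks. Both alternatives leave out low-ranked peaks. In covered bp and peak number they differ only through 1 tied peak of untreated replicate 1, kept by its position, so they are not separate evidence. Leaving out 1 library at a time gave 12.5 to 34.2 bp on chromosome 2, 58.7 to 411 bp on chromosome 3, 71.2 to 445 bp over both and 0 to 1.5 peaks. It gave -1.48 to -0.021 percentile points on chromosome 2 and 2.68 to 5.89 on chromosome 3. The group difference in peaks was 0 without untreated replicate 2.

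The labels do not say that same-numbered libraries belong together, so the numbers were not taken as pairs. Deviations of same-numbered libraries over 1934 tiles with a peak had correlations of -0.0015 and -0.0032. With 2 untreated libraries each value is the opposite of that with the other number. Such small values do not show that the libraries are unpaired. A replicate block can use replicates 1 and 2 only, so it leaves out UV replicates 3 and 4, which had 6 peaks each. The difference was then -0.5 peaks (exact permutation p = 1), which the means of the remaining libraries give with or without the block, 207 bp over both copies and 4.22 percentile points on chromosome 3, where the smallest p is 0.5. Requiring at least 50% of a peak in the window changed nothing, and the copies had 0 overlapping pairs also at that overlap. Tiles shifted by 50% gave 0.0906% and 0.121% with a peak in every library. Read depth is unknown, so what it limits cannot be given.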
